A study of Mus musculus with 6 samples.

Results

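The 6 genes described here encode 4F2hc (Slc3a2), a cell-surface glycoprotein, and 5 amino acid transporters that pair with it: xCT (Slc7a11), LAT1 (Slc7a5), y+LAT2 (Slc7a6), y+LAT1 (Slc7a7) and LAT2 (Slc7a8). They were taken by gene symbol, and no measured value entered that rule, although earlier results of these data were known when the genes were chosen. They come from the 43346 genes of the read count table, where all 6 were found. Primary mouse embryonic fibroblasts of strain C57BL/6 at passage 9, which are normal cells grown out of mouse embryos, were given 3 µM erastin or the solvent DMSO, and total RNA was taken after 24 h. Each treatment had 3 libraries. The labels do not say whether the replicates came from separate embryos or separate dishes, so the p-values measure the spread between these libraries, which may be technical. The cells were maintained in a medium that contained serum, nonessential amino acids and 2-mercaptoethanol, and the labels do not say whether the medium used during the treatment was the same.

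Heteromeric amino acid transporters consist of a heavy chain, which carries the complex to the plasma membrane, and a light chain, which moves the amino acids; a disulfide bond joins the chains. With xCT, 4F2hc forms system xc-, which takes up cystine in exchange for glutamate and so feeds glutathione synthesis. Erastin blocks this exchange and can cause ferroptosis, in which cells die as their lipids are peroxidised with the help of iron. With LAT1 or LAT2 the same heavy chain carries large neutral amino acids such as leucine, and with y+LAT1 or y+LAT2 it exchanges cationic for neutral amino acids. Thiols such as 2-mercaptoethanol are known to let cultured cells obtain cysteine by a route that does not need system xc-.

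Library totals lay between 13333911 and 20509970 counts, and 14000 genes passed the filter on low counts, the 6 genes among them. Levels are given as CPM, the standard depth-scaled read count, with library totals adjusted by TMM factors (trimmed mean of M-values). Differences were tested with edgeR's quasi-likelihood test, and p-values were adjusted over all 14000 genes with a threshold of 0.05. In this comparison 43.1% of all genes tested passed in either direction, 21.6% were higher and 21.5% lower with erastin, and 52.5% had groups that did not overlap. All 10 fibroblast markers examined were measured; 8 of them were lower with erastin and 0 higher (0 higher at an unadjusted p-value under 0.05), and their summed level was 35433 to 38496 CPM in DMSO and 25455 to 26901 CPM in erastin libraries. In bulk RNA, fewer cells of a type and less RNA per cell cannot be told apart. Of 8 macrophage and leukocyte markers 7 were tested, 0 were higher (by edgeR) and 1, Mrc1, was lower; in single libraries Lyz2 reached 804 reads, Csf1r 168 and Mrc1 100, whereas Ptprc had at most 21 and Aif1 at most 2. Of 5 neural markers 3 were tested; Nes, which reached 2217 reads, was higher and Tubb3 lower (edgeR adjusted p = 0.00288 and 0.00032), and Sox2 and Gfap had at most 10 and 11 reads. The neural sum was 137 to 175 CPM in DMSO and 135 to 158 CPM in treated libraries. Of 6 epithelial markers 1 was tested and did not pass, their sum was 2.18 to 3.25 against 2.14 to 3.17 CPM, and Krt5 and Krt14 had at most 1 and 3 reads. The endothelial receptor genes Kdr and Tek were higher with erastin, Pecam1 and Cdh5 had at most 15 and 12 reads, and the summed level of the 5 endothelial markers was 4.99 to 8.24 CPM in DMSO and 14.9 to 18.04 CPM in erastin libraries; the part of other cell types in the results below was not tested.

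The start of the Slc7a11 gene is shown first because its transcript changed most among the 6. The gene lies on the minus strand of chromosome 3 at 49892526 to 50443614 in GENCODE M21 (GRCm38). The submitters' processing notes name the build mm10, which is the same assembly. The 250 bases before the start in RefSeq (GRCm38.p6, chr3:50443614-50443863, minus strand) are printed with the letters TGATGNAA, searched on both strands, in capitals. This is a core of the C/EBP-ATF response element (CARE), to which heterodimers of ATF4 are known to bind.

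Slc7a11: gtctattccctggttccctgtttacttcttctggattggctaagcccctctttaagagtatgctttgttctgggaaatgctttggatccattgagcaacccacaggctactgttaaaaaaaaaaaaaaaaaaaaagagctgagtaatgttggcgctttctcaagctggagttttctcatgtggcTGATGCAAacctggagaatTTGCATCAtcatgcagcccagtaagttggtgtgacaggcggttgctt

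The Slc7a11 window held 2 matches, TGATGCAA at -66 to -59 and its reverse complement TTGCATCA at -47 to -40, counted from the start site. Of 32851 RefSeq start windows of the same extent (250 bases before to 50 after a start), 3.97% held at least 1 match and 0.0700% held 2 or more. Windows were found for 5 of the 6 genes, 10 windows in all, since Slc7a7 and Slc7a6 have several annotated starts; Slc7a5 had none in the table. The other gene with matches was Slc7a7, whose first window held TGATGAAA at -141 to -134 and TGATGCAA at -1 to 7; the window of another of its starts held the latter site as well. No match was found in the windows of Slc3a2, Slc7a6 and Slc7a8, which says only that these letters are not in those windows. The core of the antioxidant response element, TGANNNNGC, which NRF2 binds with small MAF proteins, matched in windows of Slc7a11, Slc7a6 and Slc7a7, but 41.3% of all windows held it; 1 of its matches in Slc7a11, at -45 to -37, overlapped the second CARE match. The stricter form TGANTCAGC, which has more fixed letters, and the cyclic AMP response element TGACGTCA matched in none of the 10 windows. They matched in 1.19% and 1.79% of all windows. Among genes with both a window and a test, 84 of 260 with 1 CARE match (32.3%) and 2272 of 9840 with none (23.1%) were higher with erastin. With 2 or more matches 3 of 7 were higher, namely Slc7a11, the alanyl-tRNA synthetase gene Aars and Chchd10, the last 2 named after their values were seen; the median log2 fold change of the 7 was -0.33. A match is a description of the sequence, and no binding was measured.

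Erastin was followed by higher transcript levels of both subunits of system xc- and of LAT1. Of the 6 genes, 3 were higher with erastin (Slc7a11, Slc3a2 and Slc7a5), 0 were lower, and 3 did not pass. No gene was lower at an unadjusted p-value under 0.05 or by DESeq2 either, and DESeq2 gave the same number of higher genes, 3. The share that passed, 3 of 6, stands beside the 43.1% of all genes. The median log2 fold change of the 6 was 0.68, against -0.0014 for all genes tested. The groups did not overlap for 5 of the 6 genes (52.5% of all genes); 4 of these were higher with erastin, beside 26.7% of all genes, and 1, Slc7a7, was lower.

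**Figure D1:**
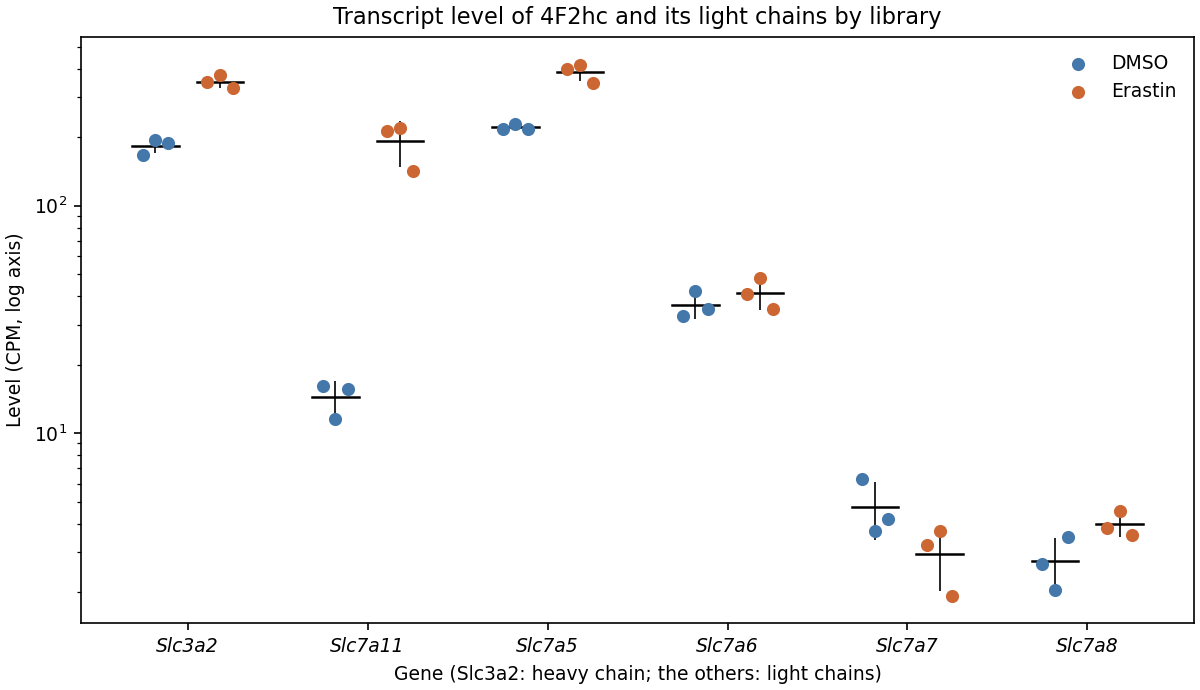
Level of each gene in each library, in CPM on a log axis; points are libraries in replicate order, horizontal bars are means and vertical bars are SD (n = 3 per treatment). The erastin libraries of Slc7a11 sit between 141 and 220 CPM, above DMSO libraries of 11.5 to 16.1 CPM, whereas those of Slc7a6 overlap.

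Slc7a11 (ENSMUSG00000027737.6) encodes xCT, the light chain that carries out cystine and glutamate exchange. Its level was 16.1, 11.5 and 15.6 CPM in DMSO replicates 1, 2 and 3, from 213, 207 and 200 reads. It was 213, 220 and 141 CPM in erastin replicates 1, 2 and 3, from 4578, 3670 and 2726 reads. Every erastin library was far above every DMSO library, and erastin replicate 3 was the lowest of the treated ones. The rise was 13.4-fold, with a 95% confidence interval of 10.5 to 17.1 (log2 fold change 3.75, SE 0.16, edgeR adjusted p = 1.01e-09). By size of rise it ranked 29 among the 14000 genes tested and 2 among 220 tested genes of the solute carrier (Slc) families, after Slc4a10, a bicarbonate transporter gene; these rankings were made after the values were seen. Of those 220 genes, 62 were higher and 43 lower, so 47.7% passed, beside 43.1% of all genes tested.

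Slc3a2 (ENSMUSG00000010095.9, chromosome 19, 8706882 to 8723369, minus strand), the heavy chain gene, had 168, 194 and 189 CPM in DMSO libraries and 349, 374 and 329 CPM in erastin libraries, in replicate order. The groups were well apart. The rise was 1.91-fold (95% confidence interval 1.70 to 2.15; log2 fold change 0.93, SE 0.08, edgeR adjusted p = 3.2e-07).

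Slc7a5 (ENSMUSG00000040010.10, chromosome 8, 121881150 to 121907694, minus strand) encodes LAT1, an exchanger of leucine and other large neutral amino acids. Its level was 217, 228 and 217 CPM in DMSO libraries and 398, 414 and 347 CPM with erastin, in replicate order. The DMSO libraries lay within a narrow range and all erastin libraries were above it. The rise was 1.75-fold (95% confidence interval 1.56 to 1.97; log2 fold change 0.81, SE 0.08; edgeR adjusted p = 1.06e-06). Its interval overlapped that of Slc3a2. In all 3 genes that rose, erastin replicate 3 had the lowest treated level; without that library the log2 fold changes of Slc7a11, Slc3a2 and Slc7a5 were 3.93, 0.98 and 0.88, and all 3 genes passed.

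Slc7a6 (ENSMUSG00000031904.4, chromosome 8, 106168857 to 106198706, plus strand) encodes y+LAT2, which exchanges arginine for glutamine and other neutral amino acids. It had 32.6, 42.2 and 35.0 CPM in DMSO libraries and 40.8, 48.1 and 35.2 CPM with erastin, in replicate order, and the groups overlapped. The difference did not pass (1.13-fold, 95% confidence interval 0.92 to 1.37; edgeR adjusted p = 0.322). A change as large as that of Slc7a5 lies outside this interval.

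Slc7a7 and Slc7a8 were scarce in these fibroblasts, so their changes were measured less precisely. Slc7a7 (ENSMUSG00000000958.5, chromosome 14, 54369442 to 54417780, minus strand) encodes y+LAT1, known from kidney, intestine and macrophages. It had 83, 67 and 54 reads in DMSO and 69, 62 and 37 reads in erastin libraries, in replicate order. In CPM these were 6.27, 3.71 and 4.20 against 3.21, 3.71 and 1.92, so the groups were parted only by the third decimal (3.714 against 3.712). The value of 0.62-fold (95% confidence interval 0.37 to 1.07; edgeR adjusted p = 0.146) did not pass. Of the merged exons of Slc7a7, 232 bases are also exonic in Oxa1l on the opposite strand, and whether the counting used the strand is not given in the sources used here. The summed level of 8 macrophage and leukocyte markers was 36.1, 48.9 and 23.8 CPM in DMSO libraries and 57.1, 57.9 and 27.7 CPM with erastin. This sum was lowest in replicate 3 of both treatments, whereas Slc7a7 was lowest in DMSO replicate 2 and erastin replicate 3. Lyz2 made up the largest part of the marker sum, with a mean of 19.0 CPM in DMSO and 31.4 CPM in treated libraries (edgeR adjusted p = 0.0578). Mrc1, a macrophage receptor gene, moved the other way and was the 1 marker of the list that passed, with means of 3.29 and 1.13 CPM (log2 fold change -1.55, edgeR adjusted p = 0.0405). The part of such cells in the Slc7a7 level was not tested.

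Slc7a8 (ENSMUSG00000022180.6, chromosome 14, 54722209 to 54781946, minus strand) encodes LAT2, a carrier of neutral amino acids of small and large size. It had 35, 37 and 45 reads in DMSO and 82, 76 and 69 reads in erastin libraries, or 2.64, 2.05 and 3.50 against 3.82, 4.55 and 3.58 CPM. The groups were separated by a small margin. The 1.46-fold value did not pass (95% confidence interval 0.87 to 2.46; edgeR adjusted p = 0.228), and a rise like those of Slc3a2 and Slc7a5 lies within its interval.

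To compare levels between genes, CPM was divided by the length of each gene's merged exons in GENCODE M21, which runs from 3315 bases for Slc7a7 to 13922 for Slc7a11. In DMSO the level per kb was highest for Slc7a5 at 59.5 ± 1.64 and Slc3a2 at 52.0 ± 3.96 CPM per kb (SD, n = 3 each). Slc7a6 followed at 8.01 ± 1.1, then Slc7a7 at 1.43 ± 0.41, Slc7a11 at 1.03 ± 0.182 and Slc7a8 at 0.546 ± 0.146 CPM per kb. Slc7a7 and Slc7a11 were neighbours whose ranges overlapped, and the other neighbours did not overlap. With erastin the order began with Slc7a5 at 104 ± 9.44 and Slc3a2 at 99.4 ± 6.33 CPM per kb (SD, n = 3 each), whose ranges now overlapped, and Slc7a11 came next at 13.7 ± 3.12, before Slc7a6 at 9.05 ± 1.42 with an overlapping range. Slc7a7 at 0.889 ± 0.279 and Slc7a8 at 0.796 ± 0.101 CPM per kb stood last and overlapped. The length used moves these levels most for Slc7a11. With the longest transcript, 9223 bases for Slc7a11, its level in erastin libraries was 20.8 ± 4.71 CPM per kb. Slc7a6 then followed at 11.0 ± 1.73 CPM per kb (SD, n = 3 each), and their ranges did not overlap. On that scale Slc3a2 came before Slc7a5 in both treatments, with overlapping ranges. Per kb of coding sequence the lower part of the order turned. In DMSO Slc7a11, at 9.55 ± 1.68, then stood above Slc7a7, at 3.09 ± 0.887 CPM per kb (SD, n = 3 each), and their ranges did not overlap. With erastin Slc7a11 stood at 127 ± 28.9 and Slc7a6 at 26.8 ± 4.21 CPM per kb of coding sequence (SD, n = 3 each), without overlap. In the same libraries Slc7a8 came before Slc7a7 on that scale, with overlapping ranges.

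**Figure D2:**
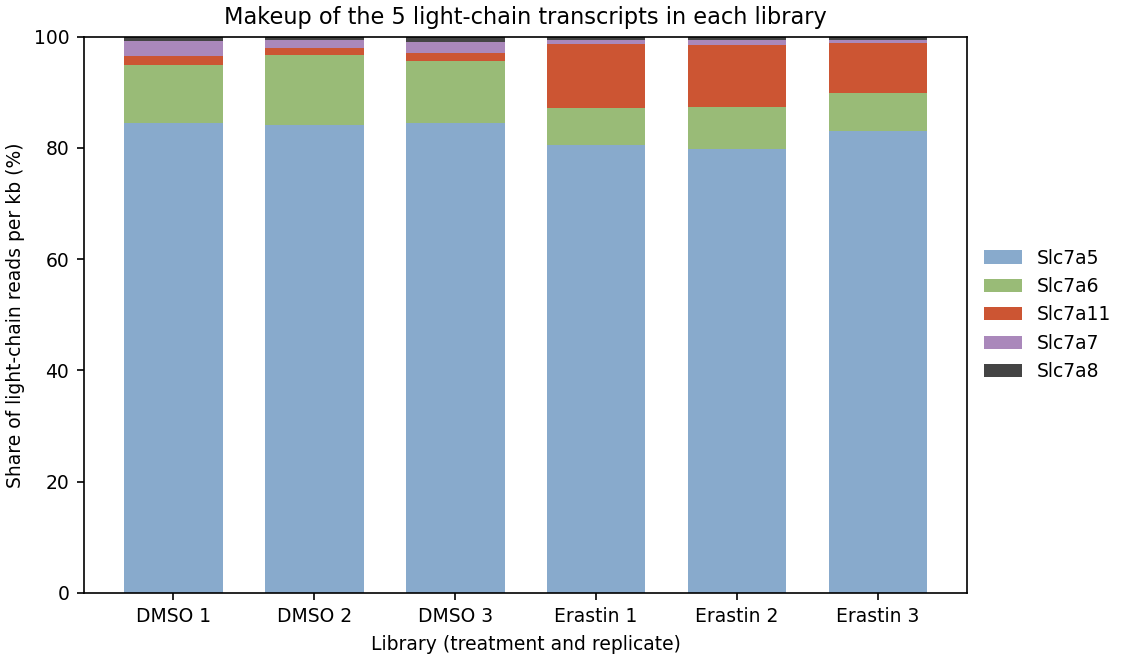
Share of each light chain in the summed reads per kb of merged exons of the 5 light chains, in percent, for each library. Slc7a5 holds 79.8% to 84.5% in all 6 libraries, and Slc7a11 grows from at most 1.67% in DMSO to at least 9.00% in erastin libraries.

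Shares within a library do not depend on how libraries are scaled. Slc7a11 made up 1.67%, 1.13% and 1.61% of light-chain reads per kb in DMSO and 11.5%, 11.3% and 9.00% in erastin libraries, in replicate order. The groups did not overlap. The difference between the means was 9.11 percentage points (1.47% ± 0.297 against 10.6% ± 1.37, SD, n = 3 each; exact permutation test, two-sided p = 0.1, which is the smallest value that 3 against 3 libraries can give). Slc7a5 remained the most abundant light-chain transcript, at 84.4% ± 0.235 in DMSO libraries and 81.1% ± 1.71 with erastin. Slc7a6 held 11.3% ± 1.21 and 7.01% ± 0.444, Slc7a7 2.03% ± 0.624 and 0.679% ± 0.149, and Slc7a8 0.778% ± 0.224 and 0.618% ± 0.0409 (SD, n = 3 each). Per kb of coding sequence the Slc7a11 share was 5.27% ± 1.04 in DMSO libraries and 30.7% ± 3.14 with erastin. The Slc7a5 share was then 79.1% ± 0.235 and 61.7% ± 3.15 (SD, n = 3 each). The size of both shares and of their changes thus depends on the length chosen.

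Within system xc-, the transcript of the light chain was compared with that of the heavy chain. The ratio of Slc7a11 to Slc3a2 per kb was 0.0244, 0.0150 and 0.0209 in DMSO and 0.155, 0.149 and 0.109 in erastin libraries, in replicate order. Each erastin library was above each DMSO library, by 2.79 on the log2 scale between the means (exact permutation test, two-sided p = 0.1, the smallest possible). All 5 light chains together stood in a ratio to Slc3a2 of 1.46, 1.33 and 1.29 in DMSO and 1.35, 1.32 and 1.21 in erastin libraries. These overlapped, with a difference of -0.072 on the log2 scale (exact permutation test, two-sided p = 0.5). Per kb of coding sequence the sign turned, with 1.68 ± 0.109 in DMSO libraries and 1.98 ± 0.17 with erastin (SD, n = 3 each; exact permutation test, two-sided p = 0.2), so no direction is given for this ratio.

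The other genes of the Slc7 and Slc3 families show how far the change extended within the family. Of 11 such genes, 4 passed the filter. Of these, 2 were higher and 1 lower (75%, beside 43.1% of all genes), with a median log2 fold change of 0.78. Slc7a1, which encodes the cationic amino acid transporter CAT-1, had 145, 137 and 149 CPM in DMSO libraries and 375, 383 and 354 CPM with erastin (2.58-fold, log2 fold change 1.37, edgeR adjusted p = 3.16e-09). Slc7a3, encoding its relative CAT-3, had 19.7, 14.0 and 18.9 CPM against 95.9, 91.8 and 87.8 CPM (5.26-fold, log2 fold change 2.40, edgeR adjusted p = 2.18e-09). Both cationic carriers, which work without a heavy chain, were thus clearly separated by treatment. Slc7a2 (CAT-2) was lower, at 40.0 ± 3.03 against 50.2 ± 5.72 CPM (mean ± SD of 3 libraries; log2 fold change -0.33, edgeR adjusted p = 0.0264). It did not pass without DMSO replicate 2 or 3 or erastin replicate 1 or 2 (edgeR adjusted p = 0.109, 0.0785, 0.0564 and 0.109), or with scaling by total count only (0.0786). The remaining genes of the family given here were named after their values were seen. Slc7a4 had 1.81 ± 0.539 CPM in DMSO libraries and 2.04 ± 1.1 CPM with erastin (SD, n = 3) and did not pass (edgeR adjusted p = 0.809). The other heavy chain gene, Slc3a1 (rBAT), had at most 7 reads in a library, and its partner Slc7a9, the cystine transporter of kidney, had 0 reads in all 6 libraries, where 3 reads would be 0.14 to 0.23 CPM. Slc7a10, another known light chain of 4F2hc, had 1 read in all.

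**Figure D3:**
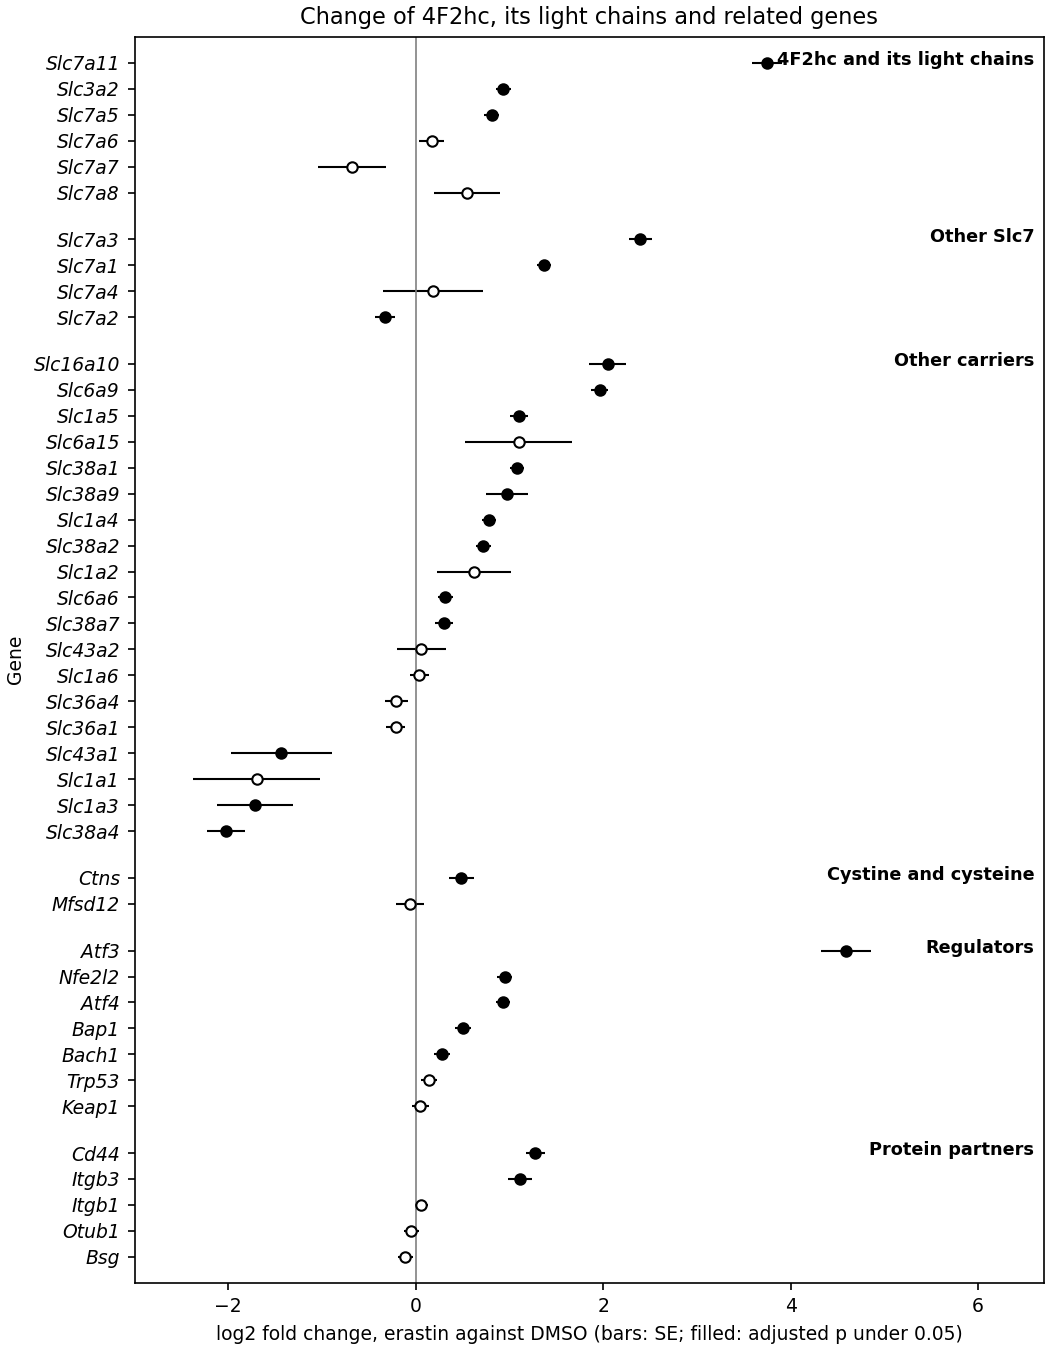
Change of 4F2hc, its light chains and the tested genes of the 5 related lists, as log2 fold change of erastin against DMSO; bars are SE from the edgeR fit, and filled points have an adjusted p-value under 0.05. A gene in more than 1 list is drawn once; Slc7a11 at 3.75 is exceeded by Atf3 at 4.59, and the other genes lie at 2.40 or below.

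Other amino acid carriers moved in both directions. The list holds mainly carriers of the plasma membrane, but Slc38a7, Slc38a9, Slc36a1 and Slc36a4 are known largely from lysosomes; of these, Slc38a7 and Slc38a9 were among the higher genes (edgeR adjusted p = 0.0179 and 0.00289) and the others did not pass, all 4 named after their values were seen. Of 23 listed, 19 were tested, and 63.2% of these passed, beside 43.1% of all genes. Of the 19, 9 were higher and 3 lower, and the median log2 fold change was 0.32. The smallest p-values among them belonged to 4 genes. Slc6a9 (GlyT1), a glycine carrier, had 23.0, 24.5 and 27.3 CPM in DMSO libraries and 99.9, 98.5 and 93.0 CPM with erastin (3.89-fold, edgeR adjusted p = 1.52e-09). Slc38a1 (SNAT1), a glutamine carrier, was 2.11-fold higher, from 132 ± 7.04 to 278 ± 3.31 CPM (mean ± SD of 3 libraries; edgeR adjusted p = 3.52e-08). Slc1a5 (ASCT2), which exchanges glutamine and other neutral amino acids, was 2.15-fold higher, from 66.8 ± 2.18 to 143 ± 15.5 CPM (mean ± SD of 3 libraries; edgeR adjusted p = 2.5e-07), and Slc16a10 (TAT1), a carrier of aromatic amino acids, 4.13-fold, from 4.25 ± 0.677 to 17.7 ± 1.76 CPM (mean ± SD of 3 libraries; edgeR adjusted p = 1.29e-06). The 3 lower genes, named after their values were seen, were the neutral amino acid carrier Slc38a4 (SNAT4; log2 fold change -2.02, edgeR adjusted p = 2.08e-06), the glutamate carrier Slc1a3 (log2 fold change -1.72, edgeR adjusted p = 0.0035) and the leucine carrier Slc43a1 (LAT3; log2 fold change -1.43, edgeR adjusted p = 0.0458). Slc43a1 had 42 reads or fewer per library and did not pass with total-count scaling (edgeR adjusted p = 0.0534), without a filter (0.0636), with the replicate block (0.0509), after an offset for GC content and length (0.0517; 0.056 with the block) or without DMSO replicate 1, 2 or 3 or erastin replicate 1 or 2 (0.0671 to 0.18).

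Among carriers that can move cystine or cysteine by other routes, ASCT2, ASCT1 and cystinosin transcripts rose. Of 8 genes listed, some of which the previous list also holds, 5 were tested. Of these, 3 were higher (60%, beside 21.6% of all genes). By edgeR and by DESeq2 0 were lower, and 1 was lower at an unadjusted p-value under 0.05. The median log2 fold change was 0.49. Slc1a4 (ASCT1), a neutral amino acid exchanger that accepts cysteine, had 99.4, 87.9 and 97.4 CPM in DMSO libraries and 166, 163 and 160 CPM with erastin (1.72-fold, edgeR adjusted p = 1.74e-06). Ctns (cystinosin), which exports cystine from lysosomes, had 23.1, 31.9 and 23.0 against 37.2, 36.0 and 36.5 CPM (1.40-fold, edgeR adjusted p = 0.00929), and Slc1a5 is given above. The gene lower before adjustment was Slc1a1 (EAAT3), a glutamate and cysteine carrier with 20 reads or fewer per library, named after its values were seen. Its level was 1.34 ± 0.208 in DMSO libraries and 0.400 ± 0.307 CPM with erastin (mean ± SD of 3 libraries; edgeR adjusted p = 0.0541).

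Of 7 regulators known to act on the Slc7a11 gene, 5 were higher with erastin and 0 lower by edgeR, by DESeq2 and before adjustment (p under 0.05). The share that was higher was 71.4%, beside 21.6% of all genes, and the median log2 fold change of the 7 was 0.50. Atf3, a stress-induced factor known to repress Slc7a11, had 7.56, 4.93 and 1.71 CPM in DMSO libraries and 124, 122 and 98.9 CPM with erastin (24.1-fold, log2 fold change 4.59, edgeR adjusted p = 7.25e-09). Atf4, the main activator of amino acid response genes, had 204, 210 and 236 against 425, 408 and 410 CPM (1.91-fold, edgeR adjusted p = 1.66e-07). Nfe2l2, which encodes the antioxidant response activator NRF2, had 106, 103 and 101 against 204, 208 and 187 CPM (1.93-fold, edgeR adjusted p = 1.96e-07). For these 3 factors no erastin library overlapped a DMSO library. Bap1, a deubiquitinase known to repress Slc7a11, was 1.42-fold higher (edgeR adjusted p = 0.000267). Bach1, a repressor at antioxidant response elements, was 1.21-fold higher (edgeR adjusted p = 0.0176), but did not pass without DMSO replicate 1 or 3 or erastin replicate 1 (edgeR adjusted p = 0.0654, 0.0559 and 0.0645) or after the offset for GC content and length (0.0789; 0.0832 with the replicate block). Keap1, the NRF2 adaptor for degradation, stood at 63.6 ± 4.03 in DMSO libraries and 65.8 ± 0.399 CPM with erastin (mean ± SD of 3 libraries; edgeR adjusted p = 0.678). Trp53, whose product p53 is known to repress Slc7a11, stood at 112 ± 5.03 and 124 ± 12.2 CPM (mean ± SD of 3 libraries; edgeR adjusted p = 0.219), and passed after that offset (log2 fold change 0.22, edgeR adjusted p = 0.0461; 0.0455 with the replicate block).

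Of 5 genes whose proteins bind xCT or 4F2hc, 2 were higher and 0 lower by edgeR, by DESeq2 and at an unadjusted p-value under 0.05. The share that passed was 40%, beside 43.1% of all genes, and the median log2 fold change was 0.060. Cd44, an adhesion receptor known to stabilise xCT at the membrane, had 592, 568 and 492 CPM in DMSO libraries and 1476, 1419 and 1108 CPM with erastin (2.42-fold, edgeR adjusted p = 1.65e-07). Itgb3, an integrin beta chain that interacts with 4F2hc, had 38.4, 34.3 and 33.3 against 88.6, 79.1 and 60.6 CPM (2.16-fold, edgeR adjusted p = 6.36e-06). The integrin beta chain gene Itgb1 stood at 1582 ± 98.5 and 1649 ± 47.6 CPM, and the chaperone-like glycoprotein gene Bsg at 651 ± 66.0 and 602 ± 39.4 CPM. Otub1, a deubiquitinase that stabilises xCT, stood at 116 ± 8.35 and 112 ± 1.93 CPM (SD, n = 3 each). These 3 did not pass (edgeR adjusted p = 0.503, 0.29 and 0.67).

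**Figure D4:**
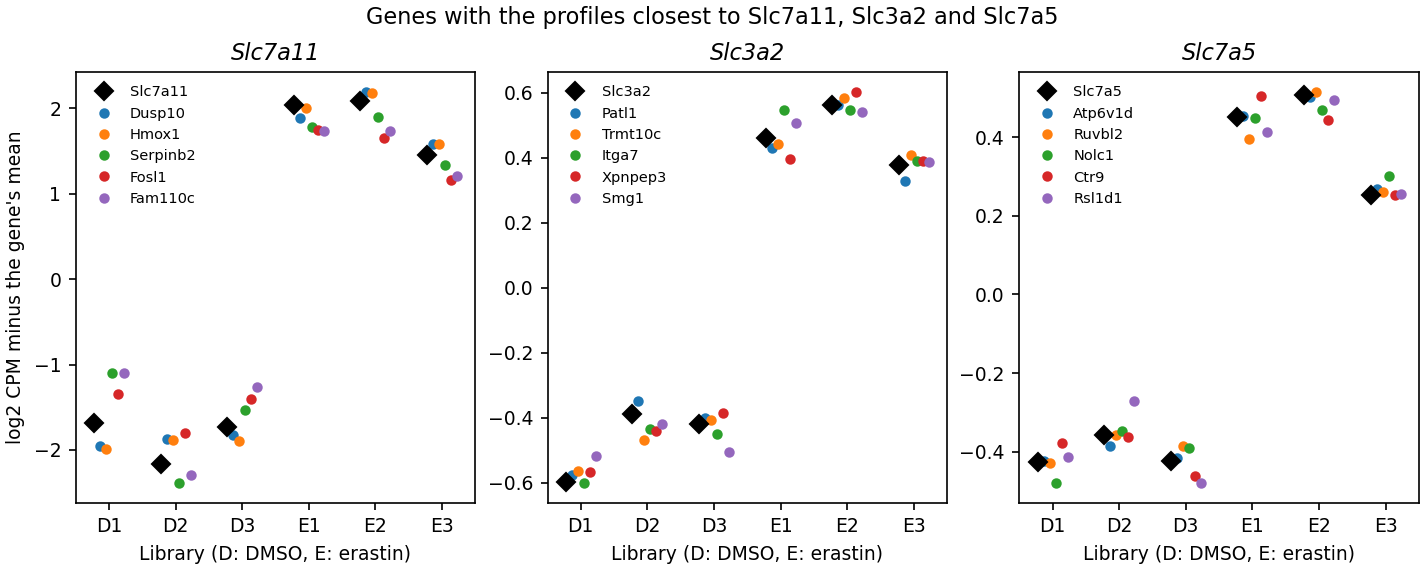
Log2 CPM of Slc7a11, Slc3a2 and Slc7a5 (diamonds) and of the 5 genes closest to each (circles), minus each gene's mean over the 6 libraries, by library; circles are shifted sideways for legibility. Vertical scales differ between panels; for each gene shown, the erastin libraries lie above the DMSO libraries, and the nearest genes of Slc7a5 lie within 0.05 of it (root mean square).

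The genes whose profiles over the 6 libraries were most like those of the 3 risen genes were found among 11231 other genes that averaged 50 counts or more, by the root mean square distance between mean-centred log2 CPM values. For Slc7a11 these were Dusp10, a MAP kinase phosphatase gene (distance 0.193), Hmox1, heme oxygenase 1 (0.196), Serpinb2, a plasminogen activator inhibitor gene (0.299), Fosl1, an AP-1 subunit gene (0.340), and Fam110c (0.376). Hmox1 rose from 186 ± 7.20 to 2703 ± 552 CPM and Dusp10 from 8.43 ± 0.396 to 118 ± 24.9 CPM (SD, n = 3 each). Serpinb2 was scarce in DMSO libraries, at 0.672 ± 0.326 CPM against 7.52 ± 1.47 CPM with erastin (SD, n = 3 each). Fosl1 stood at 9.66 ± 1.61 and 80.6 ± 16.7 CPM, and Fam110c at 2.56 ± 1.03 and 21.9 ± 4.33 CPM (SD, n = 3 each). For Slc3a2 the closest were Patl1 (0.0307), Trmt10c (0.0406), Itga7 (0.0420), Xpnpep3 (0.0430) and Smg1 (0.0524). For Slc7a5 they were Atp6v1d, a subunit of the vacuolar proton pump (0.0140), Ruvbl2 (0.0284), Nolc1 (0.0364), Ctr9 (0.0424) and Rsl1d1 (0.0448). The libraries are shared by all genes, and a profile over 6 libraries in 2 groups is met by many genes, so the distances are given as a description. With Pearson's r in place of the distance, 1 of the 5 genes was shared for each of the 3.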

How the data were processed

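Total RNA of 6 mouse fibroblast libraries was depleted of ribosomal RNA, fragmented by heat, made into barcoded libraries by PCR, size-selected and sequenced on an Ion Proton instrument, per the labels' protocols. The deposited values are whole-number read counts per Ensembl gene, without normalization. The submitters' processing notes name HTSeq 0.9.1, SAMtools and the build mm10; the aligner, annotation release, strand setting and treatment of reads that match several genes are not given in the sources used here. Each column carries a sample number that the labels give too, and 0 columns were left unused. Of 43346 identifiers, 42462 (98.0%) had a GENCODE M21 symbol; the release used for counting may differ from M21, from which lengths were taken.

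Genes were kept by filterByExpr of edgeR 4.0.16 (minimum count 10, total 15, in 3 libraries; R 4.3.3). The fit was a quasi-likelihood model with treatment as the only term over all 14000 genes, with TMM scaling and Benjamini-Hochberg adjustment. It was checked on simulated counts, in which far fewer genes changed than here, equally up and down, with the same dispersion for all genes. That check does not cover scaling under changes as widespread as these, or spread that differs between genes. SE was computed from the working weights of the fit and edgeR's moderated dispersion, and intervals are 95% t intervals. Libraries carry no molecular identifiers, so the floor of 3 counts covers counting error only. No pair of libraries within a treatment agreed within sampling noise (chi-square per degree of freedom 11.0 to 19.2).

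The genes and the 5 related lists were chosen with earlier results of these data known, the lists from general knowledge of the pathways. Named are the 6 genes, all regulators and binding partners, the 4 genes with the smallest p-values among those that passed in each other list, and the 5 nearest profiles; any other is said to be named after its values were seen. Alternatives were RLE and upper-quartile factors, total-count scaling, no filter, at least 1 CPM in 3 libraries, a replicate block, each library left out, DESeq2 1.42.0, a per-library offset for GC content and transcript length (mgcv 1.9.3), an adjusted p-value under 0.01, and other gene lengths.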

Additional observations from a re-analysis of the deposited data

How the results depend on the processing

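Across the alternatives, the 3 genes that rose (Slc7a11, Slc3a2 and Slc7a5) passed in all 15 fits each, with log2 fold changes of 3.53 to 3.93, 0.872 to 1.02 and 0.756 to 0.931, and Slc7a6, Slc7a7 and Slc7a8 passed in none and kept their signs. The number of the 6 genes higher was 3 and lower 0 in all of these fits and at an adjusted p-value under 0.01; it was 3 and 0 in each fit without 1 library. With the replicate block it was also 3 and 0. Over all genes tested, the deviations of equally numbered libraries were hardly correlated (0.040, 0.0038 and -0.0055). A small set of genes could still deviate together, so this does not decide whether the numbers pair the libraries. The genes with groups that did not overlap were 4 with RLE, upper-quartile and total-count scaling. Without 1 library they were 5 to 6, with 6 reached when DMSO replicate 2 was left out. A group with fewer libraries is parted from the other more easily, so these counts are not comparable with that of the main fit. The share over all genes, 52.5%, was counted for the main fit only. The cause of changes below was not tested. Lower genes of the Slc7 and Slc3 families went from 1 to 0 at an adjusted p-value under 0.01 and with total-count scaling (0 to 1 without 1 library). Lower genes among the other amino acid carriers went from 3 to 5 with upper-quartile factors (2 to 3 without 1 library). Lower cystine and cysteine carriers went from 0 to 1 with upper-quartile factors, with at least 1 CPM in 3 libraries and after the GC and length offset (0 to 1 without 1 library). The median log2 fold change over all genes was -0.055 with upper-quartile factors and 0.065 with total-count scaling. The light-chain sum to Slc3a2 ratio changed sign per kb of coding sequence (0.23 on the log2 scale; -0.11 to -0.021 without 1 library), and the Slc7a11 share difference ran from 8.66 to 9.90 percentage points and the log2 ratio of Slc7a11 to Slc3a2 from 2.59 to 2.95 without 1 library. Genes that did not pass changed sign as follows. Keap1 was -0.0035 with upper-quartile factors and -0.0016 to 0.084 without 1 library; Otub1 was 0.016 with total-count scaling and 0.122 and 0.123 after the offset without and with the replicate block; Bsg was 0.082 and 0.083, and Itgb1 -0.0028 and -0.0021, after the same. The low counts of Slc7a7 and Slc7a8 limit what can be said of them.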
